A study of Mus musculus with 21 samples.

Results

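Newborn skin holds a layer of fat beneath the dermis, and 10 genes of white and brown fat cells were followed in it. They were chosen by symbol and were Adipoq, Fabp4, Plin1, Lep, Cidec, Ucp1, Pparg, Lpl, Cfd and Dgat2, 10 of the 24391 genes listed in each table of counts. All 10 symbols were found, in skin, liver and brain libraries from P0 newborn mice labelled C57BL/6, the study giving C57BL/6J as the background on which Jak1 was edited. The 2 KI mice were heterozygous for a knock-in at Jak1, written Jak1 KI +/- and Jak1H595D/+;I596I/+;Y597Y/+, in which H595D changes an amino acid and I596I and Y597Y are silent. The 5 WT mice carried no knock-in. Each number within a genotype had 1 library per tissue, 21 in all, and the labels do not say whether libraries of different tissues that share a number came from the same mouse, so a name such as WT 3 stands for a library number. The KI mice descend, per the study's account, from a mosaic male founder made by gene editing, so they are a single line. Sex and litter are not given, and expression of Y-linked genes marked the libraries KI 2 and WT 3 as male in every tissue. The labels do not say how much of the fat and muscle under the skin was taken with it.

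White fat cells store triglyceride in a single large droplet and release hormones, while brown fat cells burn fat for heat. PPARγ, the product of Pparg, is the nuclear receptor that drives fat cell formation, and it acts together with the C/EBP family of transcription factors. Adiponectin (Adipoq), leptin (Lep) and adipsin (Cfd, complement factor D) are secreted by fat cells. Perilipin 1 (Plin1) and the product of Cidec coat and enlarge the lipid droplet, Fabp4 carries fatty acids inside the cell, Lpl frees fatty acids from blood lipoproteins, and Dgat2 makes triglyceride. Ucp1, which uncouples respiration in mitochondria to make heat, marks brown fat.

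The skin libraries held 28637568 to 34900383 counts on genes, the livers 30105720 to 38388133 and the brains 26549326 to 35606374. No pair of libraries held identical values. The skin label was borne out by its markers: the 5 dermal fibroblast genes (Col1a1, Col3a1, Pdgfra, Dpt, Dcn) summed to between 42367 and 67290.3 CPM (counts per 1000000 counts of the TMM-scaled library, TMM being edgeR's scaling for library composition), and the 5 epidermis genes (Krt5, Krt14, Krt1, Krt10, Lor) to between 850.3 and 16497 CPM. Genes of skeletal muscle were abundant as well, with 8 muscle genes summing to between 6060.0 and 25818 CPM. A table of promoters from RefSeq, on the build GRCm38.p6, held 7 of the 10 genes. Since most of the 10 genes moved together between skins (below), the 250 bases before the start are shown for Adipoq, for Plin1, which followed it closely, for Lep, which followed it less closely, and for Ucp1, which stood apart. Fabp4, Lpl and Dgat2 were not in the table.
Adipoq, chr16:23146286-23146535, plus strand: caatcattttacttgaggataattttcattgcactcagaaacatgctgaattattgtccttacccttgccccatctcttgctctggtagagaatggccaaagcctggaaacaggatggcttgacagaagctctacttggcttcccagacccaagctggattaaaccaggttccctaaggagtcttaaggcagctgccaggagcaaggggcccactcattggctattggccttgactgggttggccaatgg
Plin1, chr7:79732777-79733026, minus strand: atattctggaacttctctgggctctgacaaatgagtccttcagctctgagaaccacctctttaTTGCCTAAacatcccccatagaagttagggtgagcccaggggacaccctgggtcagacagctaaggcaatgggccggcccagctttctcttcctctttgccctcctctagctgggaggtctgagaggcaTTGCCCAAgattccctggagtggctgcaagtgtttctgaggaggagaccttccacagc
Lep, chr6:29059971-29060220, plus strand: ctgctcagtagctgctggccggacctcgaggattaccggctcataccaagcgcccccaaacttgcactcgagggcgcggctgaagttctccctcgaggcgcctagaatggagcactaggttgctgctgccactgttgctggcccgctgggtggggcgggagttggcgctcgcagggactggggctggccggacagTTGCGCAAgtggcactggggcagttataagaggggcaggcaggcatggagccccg
Ucp1, chr8:83290098-83290347, plus strand: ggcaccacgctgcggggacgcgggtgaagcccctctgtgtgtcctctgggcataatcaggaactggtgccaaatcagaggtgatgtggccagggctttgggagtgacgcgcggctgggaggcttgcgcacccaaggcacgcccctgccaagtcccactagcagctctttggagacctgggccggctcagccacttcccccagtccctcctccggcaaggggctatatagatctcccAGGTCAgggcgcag

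Each sequence reads 5′ to 3′ on the strand of its gene, and capitals mark matches to the motifs searched on both strands. The C/EBP motif TTGCNNAA was matched at bases -187 and -58 of Plin1 and at -55 of Lep, counted from the start of the gene to the first base of the match. It was also matched at the second start of Cidec and the third start of Pparg, and 9.56% of the 32851 promoters in the table held it. The nuclear receptor core AGGTCA was matched at -14 of Ucp1 and at the first and second starts of Pparg, against 14.0% of all promoters. The paired form DR1, which is AGGTCA followed by any 1 base and AGGTCA again and is the kind of site bound by PPARγ with its partner RXR, was matched in none of the promoters of the 10 genes that were in the table and in 0.0335% of all promoters. The TATA box TATAAA, searched on the strand of the gene (7.59%), was likewise matched in none of them. Adipoq and Cfd held no match to any of these motifs in the 250 bases.

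The skins differed widely in their fat genes, and both genotypes held skins with much and with little. The 9 genes other than Ucp1 took between 0.170% and 0.939% of the counts on genes in a skin. Their summed level was 4219 and 9549 CPM in KI 1 and KI 2, and 7109, 5168, 9593, 1733 and 3587 CPM in WT 1 to WT 5. WT 3 and KI 2, the male mice, had the highest sums, and WT 4 had the lowest. The KI mean was 1.27 times the WT mean, while the WT skins alone had an SD of 0.561 of their mean, and the ratio was 0.776 without KI 2 and 1.76 without KI 1. Sums of genes were not tested. In RNA from whole skin, fewer fat cells and less RNA per fat cell cannot be told apart.

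**Figure D1:**
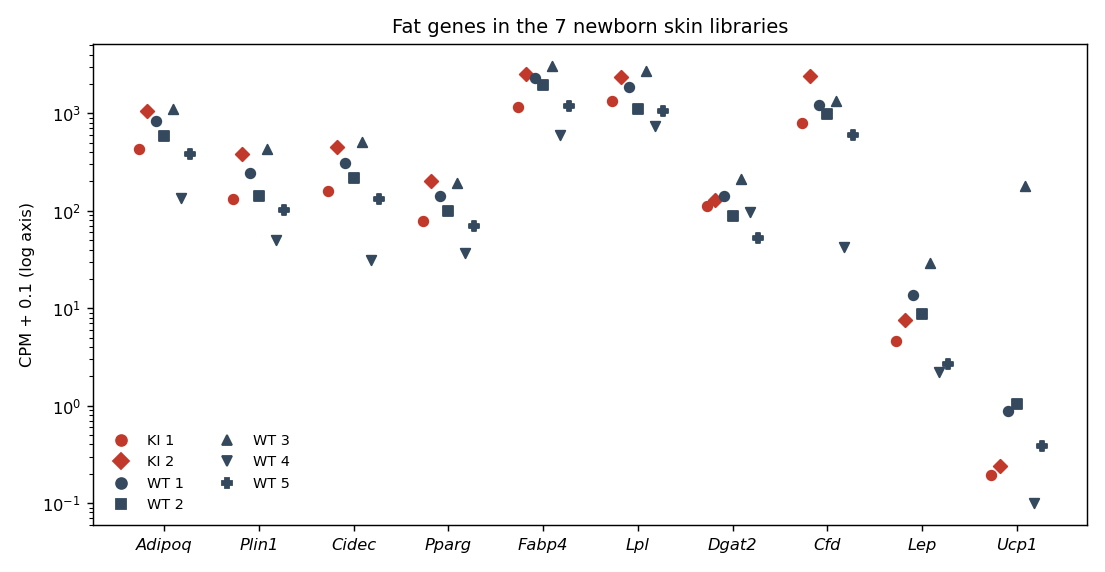
CPM plus 0.1, on a log axis, of the 10 fat genes in each of the 7 newborn skin libraries, with 1 point per library, KI in red and WT in dark blue, and a marker shape for each mouse. WT 4 is the lowest point for 9 of the 10 genes, WT 3 is the highest for 8, and the Ucp1 point of WT 3 stands at 179 CPM above all other skins.

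The master regulator Pparg (chr6:115311239-115440419, plus strand, on NCBIM37, which is mm9 and the build of all gene positions below) stood at 79.1 and 199.7 CPM in KI 1 and KI 2, and at 141, 99.5, 191, 36.7 and 69.6 CPM in WT 1 to WT 5. KI 2 had the highest level of all skins and KI 1 ranked 5 of 7, so the genotypes overlapped. The log2 fold change of KI over WT was 0.37 (standard error 0.590, edgeR adjusted p = 0.999).

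Among the secreted products, Adipoq (chr16:23146609-23158101, plus strand) stood at 428 and 1049.6 CPM in KI 1 and KI 2, and at 826, 591, 1104, 136 and 382 CPM in WT 1 to WT 5. The KI skins lay within the range of the WT skins, and KI 2 was close to the highest of them. Its log2 fold change was 0.28 (standard error 0.689, edgeR adjusted p = 0.999), with a 95% interval from -1.07 to 1.63. Leptin was the scarcest of the white fat genes. Lep (chr6:29010220-29023877, plus strand) had 142 and 215 counts in the KI skins and 414, 266, 974, 71 and 73 counts in WT 1 to WT 5. Its log2 fold change of -0.89 (standard error 0.987, edgeR adjusted p = 0.999) became -0.15 without WT 3, the skin with the most. Adipsin varied the most of the 9 genes other than Ucp1. Cfd (chr10:79353598-79355401, plus strand) stood at 791 and 2422 CPM in KI 1 and KI 2, and at 1223, 975, 1336, 42.9 and 605 CPM in WT 1 to WT 5. The highest skin, KI 2, held 56.5 times the level of the lowest, WT 4, while the log2 fold change between genotypes was 0.94 (standard error 0.950, edgeR adjusted p = 0.999). Without KI 2 it was -0.091, and without KI 1 it was 1.58.

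The droplet coat gene Plin1 (chr7:86866050-86877662, minus strand) stood at 132 and 381 CPM in KI 1 and KI 2, and at 242, 141, 436, 49.8 and 101 CPM in WT 1 to WT 5. Cidec (chr6:113374628-113385754, minus strand), which lets droplets fuse, had the same order of skins, from 31.4 CPM in WT 4 to 509 CPM in WT 3, with 158 CPM in KI 1 and 452 CPM in KI 2. Both genes put WT 3 first, KI 2 next and KI 1 at rank 5 of 7. The log2 fold changes were 0.40 for Plin1 (standard error 0.755) and 0.35 for Cidec (standard error 0.850), each with an edgeR adjusted p of 0.999.

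Of the genes that handle lipid, Fabp4 (chr3:10204347-10208576, minus strand) ranged from 600.1 CPM in WT 4 to 3073 CPM in WT 3, with 1164 and 2552 CPM in the KI skins. Lpl (chr8:71404390-71431347, plus strand) ranged from 736 to 2705 CPM between the same skins, the smallest spread of the 9 genes at 3.67 times. Dgat2 (chr7:106302173-106331223, minus strand) followed another order. It stood at 113 and 130.2 CPM in the KI skins and at 142, 87.8, 210.3, 97.3 and 52.3 CPM in WT 1 to WT 5, so that its lowest skin was WT 5 and WT 4 ranked 5 of 7. The log2 fold changes were 0.02 for Fabp4 (standard error 0.583), 0.31 for Lpl (standard error 0.488) and 0.04 for Dgat2 (standard error 0.455), and edgeR gave each an adjusted p of 0.999.

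Brown fat was marked by 1 skin. Ucp1 (chr8:85814247-85822355, plus strand) had 3 and 4 counts in the skins of KI 1 and KI 2, and 24, 29, 6013, 0 and 8 counts in WT 1 to WT 5. WT 3 held nearly all of the Ucp1 counts, and the 0 in WT 4 allows up to 3 counts. The KI skins had fewer counts than WT 1, WT 2, WT 3 and WT 5 and more than WT 4, so the groups overlapped. In the brain Ucp1 had 0 to 9 counts and in the liver 0 to 4, so the KI skins were within the range of the other tissues. The log2 fold change was -8.23 (standard error 4.31, edgeR adjusted p = 0.999, unadjusted p = 0.0935), and without WT 3 it was -2.05 (adjusted p = 0.974). Relative to Adipoq, Ucp1 had 0.221 and 0.134 counts per 1000 Adipoq counts in KI 1 and KI 2, and 0.949, 1.57, 162, 0 and 0.738 in WT 1 to WT 5. The mean log2 ratio of Ucp1 to Adipoq, with 0.1 CPM added to each, was 3.19 lower in KI than in WT skins (KI minus WT -3.19, 2 against 5 skins, two-sided exact permutation test p = 0.286), where the 21 splits allow no p below 0.0476. Without WT 3 the difference was -1.74 (exact permutation p = 0.0667, which is the smallest that 15 splits allow). The ratio of WT 4, which had 0 Ucp1 counts, is set by the 0.1 CPM added, and so lies above those of both KI skins.

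Taking the 10 genes in the KI to WT comparison of skin, edgeR called none at an adjusted p under 0.1, beside 0.0247% of the 16163 genes tested, which is 4 genes, all higher in KI. None of the 10 had an unadjusted p under 0.05, against 738 of all genes tested, and DESeq2, which called 107 genes (0.662%), called none of the 10 and gave no adjusted p for Ucp1. All 10 had passed the filter on low counts. The median log2 fold change was 0.29 over the 10 genes and -0.03 over all genes tested. None of the 10 had KI skins that lay wholly above or below the WT skins, where 9.75% of all genes did. Jak1 itself, whose counts cannot tell the edited allele from the other, differed by 0.18 on the log2 scale in skin (standard error 0.102, edgeR adjusted p = 0.999). On simulated counts with the spread of these skins, the same test recovered 37.8% of 2-fold and 75.5% of 4-fold changes, with 15 false calls among 16163 genes. DESeq2 made 111 false calls there. The changed genes were drawn at random from expressed genes, so these shares cannot be read as rates for the fat genes, which varied more. The highest skin was at a median of 8.09 times the lowest for the fat genes other than Ucp1. Over all genes tested with counts in every skin, that median was 1.66.

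**Figure D2:**
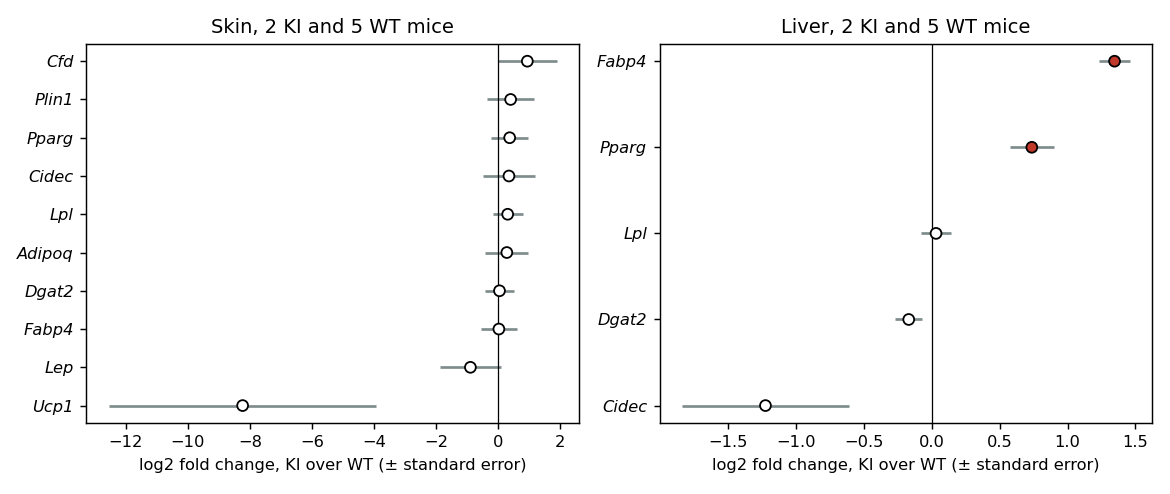
Log2 fold change of KI over WT, with the standard error from edgeR as bars, for the fat genes tested in skin (10 genes) and in liver (5 genes), 2 KI against 5 WT mice in each. Filled points are called at an adjusted p under 0.1, which holds for Fabp4 and Pparg in the liver and for no gene in the skin.

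KI 2 was above KI 1 for all 10 genes, and for most of them the direction depended on which KI skin was counted. Without KI 1 the log2 fold changes of Adipoq, Plin1, Cidec and Pparg were 0.83, 1.02, 0.96 and 0.93, and without KI 2 they were -0.52, -0.56, -0.61 and -0.45. Lep and Ucp1 stayed below 0 whichever skin was left out. KI 2 was male, as was WT 3, and with Y-linked expression as a covariate the changes of Adipoq, Plin1, Cidec and Pparg were -0.14, -0.085, -0.14 and -0.057. The 2 male skins were those with the highest sums of the 9 genes, 1 in each genotype. The part of sex in the fat content was not tested.

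Genes of the same pathways that were outside the 10 were described from fixed lists. Of 9 further transcription factors of fat cells, all 9 had log2 fold changes above 0 in KI skin, with a median of 0.31. Among the 9, edgeR called 1 gene, beside 0.0247% of all genes tested. That gene was Cebpd, an early factor of fat cell formation that many other cell types also make on stress or inflammation. Cebpd stood at 91.4 and 93.2 CPM in the KI skins and 33.5 to 45.2 CPM in the WT skins, which did not overlap (log2 fold change 1.21, standard error 0.123, edgeR adjusted p = 0.0899). Its log2 fold change stayed between 1.16 and 1.29 when any 1 skin was left out. Its adjusted p was between 0.136 and 0.924 when any 1 skin was left out, 0.124 with the Y-linked covariate and 0.437 without WT 3 and WT 4, so the call was lost each time, while DESeq2 called it (adjusted p = 7.46e-11). On the simulated skin counts, DESeq2 made 111 false calls and edgeR made 15. Klf15, which acts late in fat cell formation, differed by 0.65 (standard error 0.205), and Cebpa, which acts beside PPARγ, by 0.36 (standard error 0.348), and neither was called.

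None of the genes on the other fat lists was called in skin by edgeR. The 3 largest differences among 7 lipid droplet proteins were -1.29 for G0s2, an inhibitor of the lipase ATGL, -0.93 for Plin5 and 0.46 for Fitm2. Among 6 genes of lipolysis, all 6 were above 0 with a median of 0.27, the largest being Pnpla2 (ATGL itself) at 0.43, Abhd5 (its activator) at 0.33 and Lipe (hormone-sensitive lipase) at 0.31. Among 10 genes of fatty acid uptake and triglyceride synthesis, 8 were above 0 with a median of 0.31, and the largest were Slc27a1 at 0.74, Gpam at 0.65 and Acsl1 at 0.56. By contrast, 7 of 8 genes of fatty acid synthesis and sugar uptake were below 0 with a median of -0.35, led by Scd1 at -0.67, Acly at -0.39 and Fasn at -0.37. Among 5 genes of other fat cell products, Nnat stood at -0.60, Agt at 0.53 and Retn (resistin) at 0.29. Among 15 brown fat genes, 10 were below 0 with a median of -0.31, and Otop1 at -3.56, Cidea at -2.75 and Cox7a1 at -1.27 were the largest, each with its highest skin in WT 3. Without WT 3, the difference was -0.41 for G0s2, 0.30 for Plin5, 0.34 for Fasn, -0.61 for Cidea and -0.42 for Cox7a1, while Otop1 stayed between -3.95 and -3.20 whichever skin was left out. These lists were chosen with earlier results of the data known.

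Markers of other cells in the same skins had the following values. All 5 macrophage genes (Adgre1, Csf1r, Cd68, Mrc1, Lyz2) had log2 fold changes above 0 in KI skin with unadjusted edgeR p under 0.05, although edgeR called none. Over all 16163 genes tested, 738 had such a p, and the list was chosen with earlier results known. The 5 genes summed to 560.0 and 721 CPM in the KI skins against 372 to 524 CPM in the WT skins. The 5 endothelial genes summed to 979.6 and 1333 CPM in the KI skins and to between 709.7 and 1214 CPM in the WT skins. All 8 muscle genes were below 0 and uncalled, with a median of -0.15. Genes of hepatocytes, neurons and sebaceous glands summed to at most 45.6 CPM in any skin. None of the muscle, epidermis, endothelial or macrophage genes was at 0 in all skins, and their part in the values of the fat genes was not tested.

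The skin with the least fat RNA held the most RNA of muscle and epidermis, but the other skins did not follow that order. WT 4, lowest for 9 of the 10 genes against 22.1% of all genes tested, had the highest muscle sum at 25818 CPM and the highest epidermis sum at 16497 CPM. WT 5, next lowest in fat, had 19653 CPM of muscle and only 1447 CPM of epidermis. KI 2, among the richest in fat, had 13525 CPM of muscle and 850.3 CPM of epidermis, and KI 1 had 16328 and 13533 CPM. In WT 4, 7 of 8 muscle genes and 4 of 5 epidermis genes were at their highest, and all 5 endothelial genes were at their lowest. The share of all genes tested that were highest in WT 4 was not computed, while 22.1% were lowest there. Of the 9 genes other than Ucp1, Cfd was the lowest relative to Adipoq in this skin, when each is set against its own median, at 314 counts per 1000 Adipoq counts against a median of 1582 over the 7 skins, while Lpl stood at 5395 against 2450 and Dgat2 at 713 against 171.

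**Figure D3:**
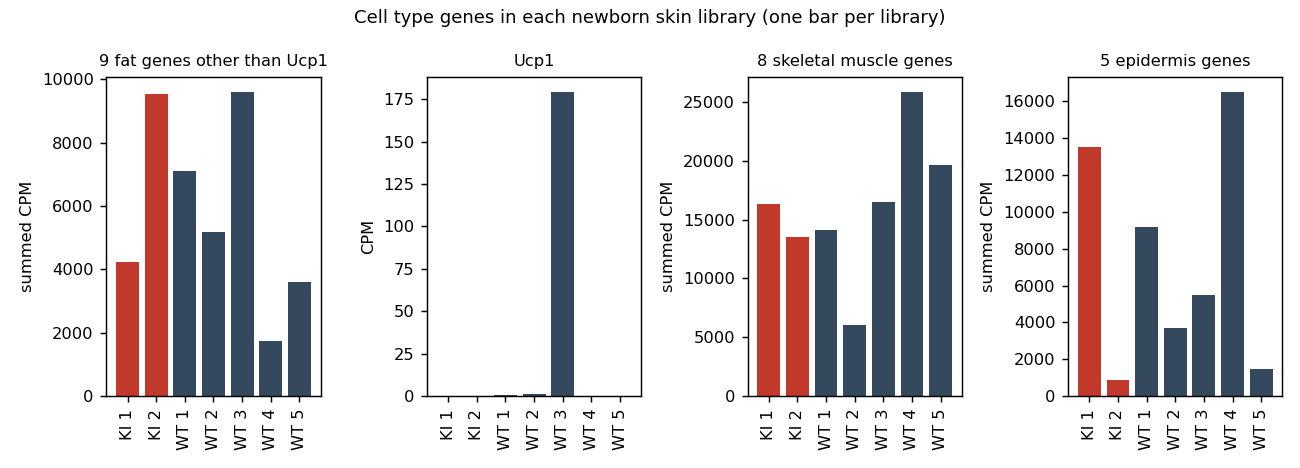
Summed CPM of the 9 fat genes other than Ucp1, CPM of Ucp1, and summed CPM of 8 skeletal muscle genes and 5 epidermis genes, with 1 bar for each of the 7 newborn skin libraries (KI red, WT dark blue). Fat is lowest and muscle and epidermis are highest in WT 4, and the Ucp1 bar is tall in WT 3 alone.

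The skin of WT 3 stood apart in Ucp1 and some other genes of brown fat. Ucp1 at 179 CPM was 848 times the median of the other 6 skins, the largest such ratio of the 16156 genes compared, of which 0.248% were at least 5-fold higher in that skin. Of the 15 further brown fat genes, 9 had their highest level in WT 3, beside 18.3% of all genes tested. That was not particular to brown fat, as 8 of the 10 genes, 5 of 7 droplet, 5 of 6 lipolysis and 7 of 8 fatty acid synthesis genes were also highest there. So were 5 of 10 genes of uptake and triglyceride synthesis, 2 of 9 transcription factors and 2 of 5 genes of other fat cell products. WT 3 was at least 2-fold above the next skin for 5 of the 15 brown fat genes, and for 2 each of the 10 genes, the droplet and the fatty acid synthesis genes. The share of all genes tested that passed this 2-fold level was not computed, so these counts have no background beside them. Cidea, a droplet protein of brown fat, stood at 192 CPM against 4.19 to 16.6 CPM in the other skins, and Otop1 at 4.41 CPM against at most 0.327. The mitochondrial genes Cox7a1 and Cox8b stood at 64.0 and 80.2 CPM against at most 15.9 and 37.0 CPM in the other skins. Both are also made by muscle, and the part of muscle in these values was not tested. Cpt1b, which brings fatty acids into mitochondria and is shared with muscle, had 1.58 CPM against at most 0.56. Plin5, of the droplet list, had 22.0 CPM against at most 4.28.

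Other brown fat genes showed no such excess in WT 3. The regulators Prdm16 and Ppargc1a were 1.63 and 1.65 times their medians in the other skins, and Ebf2 was 2.29 times. Dio2, which activates thyroid hormone, had 8.67 CPM in WT 3 against a highest value of 10.5 elsewhere, and Elovl3 had 9.26 against 10.1. Zic1, a marker of classical brown fat that other tissues of the back also make, had 2.03 CPM against 0.0351 to 33.0 CPM in the others, the highest being WT 4. Of the fatty acid synthesis genes, 7 of 8 were highest in WT 3, Fasn at 2455 CPM against a median of 554 and Scd1 at 5500 against 1412. The liver and brain of WT 3 had 0 and 1 Ucp1 counts. Genes of this paragraph and the previous paragraph were named after their values in WT 3 were seen, and no test was made of a single library. In the annotation Cidea, Elovl3, Zic1 and Fabp3, of the brown fat list, overlap counted genes on the opposite strand, and Cpt1b overlaps a neighbour. Of the genes named elsewhere, Fitm2, Lipe, Csf1r and Jak1 also overlap a counted gene on the opposite strand. The counting is not stated to use strand, so counts of these genes cannot be fully told apart from those of the partner.

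**Figure D4:**
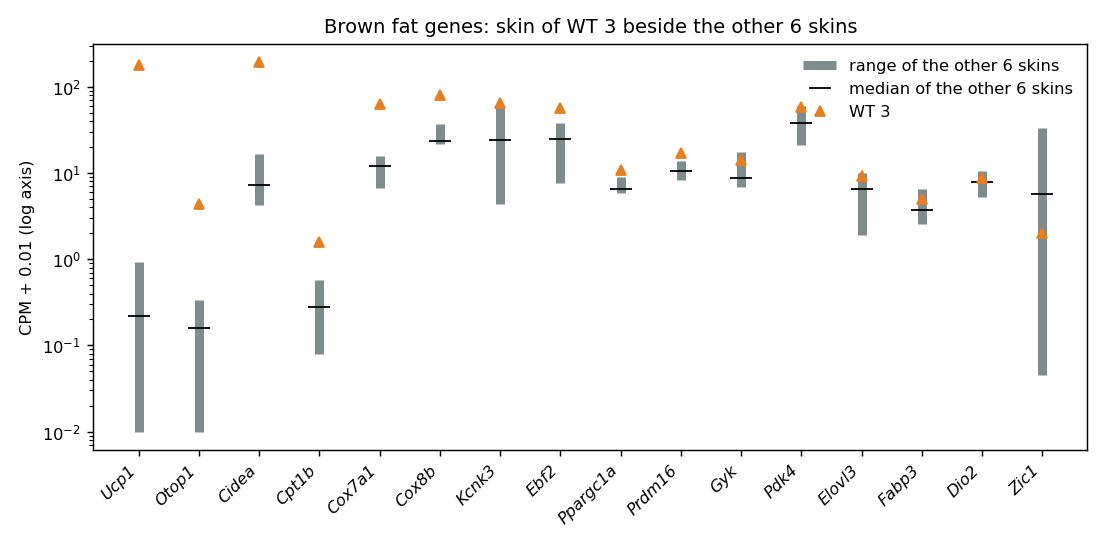
CPM plus 0.01, on a log axis, of Ucp1 and 15 further brown fat genes in the skin of WT 3 (orange triangles), beside the range (grey bars) and median (black dashes) of the other 6 skins, ordered by the ratio of WT 3 to that median. Ucp1, Otop1 and Cidea lie far above the grey bars, while Dio2, Elovl3 and Zic1 lie within them.

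Across the 7 skins most of the genes rose and fell with Adipoq, on the scale of log2 CPM with 0.1 added. Pearson's r with Adipoq was 0.998 for Cidec, 0.988 for Pparg, 0.986 for Fabp4, 0.970 for Plin1, 0.946 for Cfd and 0.926 for Lpl, each with an adjusted p of at most 0.00208 over the 9 relations by exact permutation of 5040 pairings, and Spearman's rho was between 0.964 and 1 (adjusted p at most 0.00417). For Lep r was 0.853 (exact permutation adjusted p = 0.0161) and rho was 0.893 (adjusted p = 0.0158). Left without WT 4 and WT 3, the skins farthest from the median of Adipoq, r for these 7 genes was between 0.787 and 0.996. At the level of 0.05 used for permutation tests, Dgat2 did not pass by Pearson's r (0.568, exact permutation adjusted p = 0.183) or by rho (0.786, adjusted p = 0.0540). Ucp1 had an r of 0.599 (exact permutation adjusted p = 0.180) and a rho of 0.679 (adjusted p = 0.110), and without WT 4 and WT 3 its r was 0.165. The 2 male skins and the 5 others are too few for values within a sex. These genes were measured in the same libraries and scaled by 1 library size, so their correlations are not independent of each other.

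Genes outside the 10 followed the same order of skins. The 10 most alike, by Pearson's r over the 7 skins with the mean log2 CPM of the 10 genes, were Cdo1, Prkar2b, Acadm, Thrsp, Pla2g16, Mmd, Acad10, Nabp1, Pfkfb1 and Acad8, with r between 0.986 and 0.992. That mean included Ucp1, at 179 CPM in WT 3 and at most 0.929 CPM in the other skins. Every r in this paragraph therefore gives extra weight to a high level in WT 3. Cdo1, which makes a precursor of taurine from cysteine, ranged from 143 to 667 CPM. Acadm, which breaks down medium-chain fatty acids, ranged from 65.2 to 348 CPM, and Thrsp, which promotes fatty acid synthesis, from 19.3 to 389.8 CPM. In all, 483 of 16153 genes (2.99%) had r above 0.9. All 6 lipolysis genes did, as did 6 of 8 fatty acid synthesis genes and 6 of 10 genes of uptake and triglyceride synthesis. Only 2 of 9 transcription factors and 1 of 15 brown fat genes passed that level, with median r of 0.41 and 0.47. Median r was -0.38 for the muscle genes, -0.26 for the epidermis genes, 0.63 for the endothelial genes, 0.22 for the macrophage genes and -0.16 for the fibroblast genes, beside -0.03 over all genes. These are descriptions over 7 points, and values above 0.9 are given without a test.

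Compared per length of transcript, in CPM per kilobase with all 21 libraries on 1 scale, Fabp4 was the most abundant of the 10 genes in WT skin, with a median of 2622. Cfd followed with 907, Adipoq with 393, Lpl with 230.2, Cidec with 107, Plin1 with 63.2, Pparg with 46.0, Dgat2 with 37.9, Lep with 2.25 and Ucp1 with 0.411. Neighbours in this order overlapped over the 5 WT skins in every case but Dgat2 (20.3 to 81.0) and Lep (0.563 to 7.71). With the same scale, WT liver had medians of 399.8 for Lpl, 179.9 for Fabp4, 175 for Dgat2 and 4.44 for Pparg. WT brain had 9.40 for Dgat2, 3.09 for Fabp4, 2.57 for Lpl and 0.206 for Pparg.

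**Figure D5:**
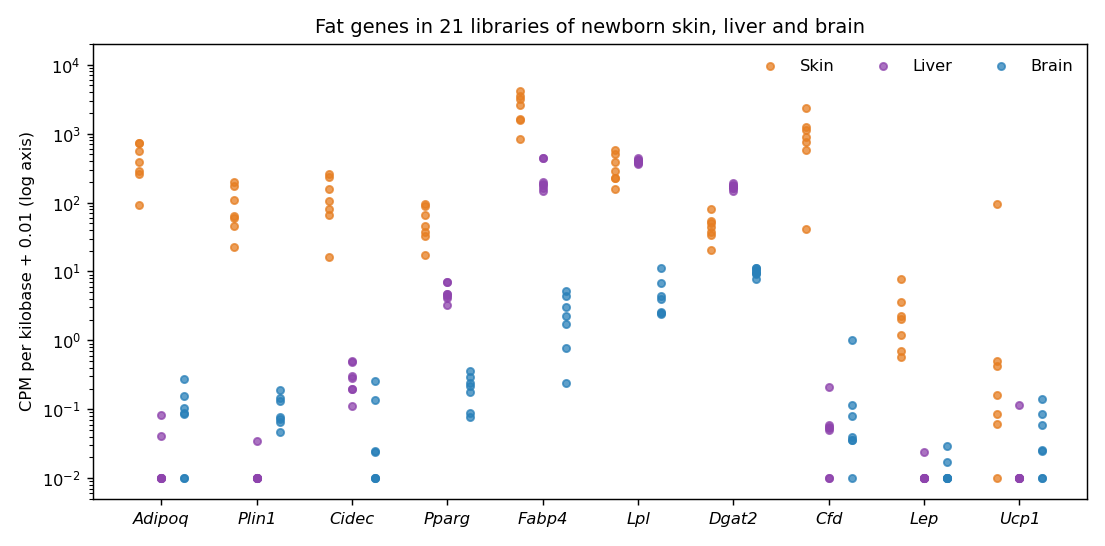
CPM per kilobase plus 0.01, on a log axis, of the 10 fat genes in the 21 libraries, with 1 point per library and 7 libraries per tissue. Skin is above brain for 9 of the 10 genes, liver overlaps skin for Lpl and lies above it for Dgat2, and Ucp1 is near the floor in all but 1 library.

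Skin held far more RNA of the fat-restricted genes than either other tissue. In the WT livers Adipoq had 0 to 2 counts, Plin1 and Lep 0 to 1 and Cfd 1 to 4, and in the WT brains Adipoq had 0 to 8, Plin1 3 to 9, Lep 0 to 2, Cidec 0 to 1 and Cfd 0 to 4. These genes, and Cidec in the liver at 8 to 18 counts, passed the filter through the skin and had to differ, so no count over them is given. For the 4 genes with more counts elsewhere, WT skin was above WT brain by a log2 fold change of 9.73 for Fabp4 (standard error 0.711), 8.04 for Pparg (0.507), 6.11 for Lpl (0.526) and 2.24 for Dgat2 (0.271), with edgeR adjusted p of at most 1.55e-06. Against WT liver, Fabp4 was higher by 3.83 (standard error 0.541) and Pparg by 3.57 (0.393), with edgeR adjusted p of 1.15e-05 and 7.10e-07, and Dgat2 was lower, at -1.96 (standard error 0.267, adjusted p = 7.76e-06). Lpl did not pass the test against liver, with a log2 fold change of -0.34 (standard error 0.421, edgeR adjusted p = 0.490) and a 95% interval from -1.16 to 0.49. In the WT brains Pparg had 4 to 24 counts, which is near the floor, so it is left out of the count against brain. Fabp4, Lpl and Dgat2 were all called higher in skin than brain, where 40.3% of all genes were. Of the 4 genes, 2 were called higher and 1 lower than in liver, where 39.8% and 32.5% of all genes were. Ucp1 did not pass the filter there.

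In the liver, a tissue with few fat cells, 2 of the 5 genes tested were called higher in KI mice, Fabp4 and Pparg, beside 3.89% of the 14966 genes tested called higher and 5.57% called either way. Fabp4 stood at 203 and 199 CPM in KI 1 and KI 2, and at 74.4, 81.6, 92.4, 80.6 and 67.2 CPM in WT 1 to WT 5. Both KI livers were more than 2 times any WT liver, and the log2 fold change was 1.35 (standard error 0.114, edgeR adjusted p = 0.000858). Fabp4 is also made by macrophages and endothelial cells. Pparg stood at 9.31 and 9.30 CPM in the KI livers and 5.46, 5.74, 4.47, 6.06 and 6.14 CPM in WT 1 to WT 5, which did not overlap (log2 fold change 0.74, standard error 0.161, edgeR adjusted p = 0.0487). The call of Fabp4 held when any 1 liver was left out (adjusted p from 0.00113 to 0.0258), while that of Pparg was lost without KI 1 (0.223) or KI 2 (0.326), and both were lost when all 21 libraries shared 1 fit (0.451 and 0.702). Cidec at -1.22, Dgat2 at -0.17 and Lpl at 0.03 were not called. Adipoq, Plin1, Lep and Cfd were at 0 in both KI livers, which allows up to 3 counts each.

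Markers of other cells were also compared in the liver. The 5 macrophage genes summed to 951 and 1224 CPM in the KI livers against 753 to 860.3 CPM in the WT livers. Of these 5 genes 3 were called higher, beside 3.89% of all genes tested, namely Adgre1 (log2 fold change 0.56), Cd68 (0.56) and Csf1r (0.49). The 5 endothelial genes summed to 301 and 375 CPM against 120.0 to 318 CPM, with none called. All 5 dermal fibroblast genes were below 0, with a median log2 fold change of -0.90 and none called. Of 3 neuron genes tested, Tubb3 was called higher (3.47) and Stmn2 lower (-4.14), where 3.89% and 1.68% of all genes were. Both calls were lost without KI 1 and without KI 2. No hepatocyte, muscle, epidermis or sebaceous gland gene was called. The part of these cells in the Fabp4 and Pparg values was not tested. On the fat lists, 3 of 8 fatty acid synthesis genes were called lower in KI liver, where 1.68% of all genes were, Thrsp at -3.72 (1.25 and 0.934 CPM against 8.87 to 25.2 CPM), Acaca at -0.59 and Scd1 at -0.52. Gpam (-0.58) and Gpihbp1 (-0.75), of uptake and triglyceride synthesis, and Kcnk3 (-2.70), of the brown fat list, were called lower, and Dgat1 (0.59) was called higher. All of these but Thrsp lost their call without KI 1, without KI 2 and without at least 1 of the WT livers, as did Adgre1, Cd68 and Csf1r, whereas Thrsp lost its call only when all 21 libraries shared 1 fit (adjusted p = 0.103).

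In the brain none of the 10 genes was called by edgeR or DESeq2. Of the 16322 genes tested, edgeR called none (0.0%), although 1732 had an unadjusted p under 0.05, and DESeq2 called 604 (3.70%). Of the 5 fat genes tested, none did. Lpl, which some neurons make, had 751 and 1128 counts in the KI brains and 436, 388, 387, 676 and 1460 counts in WT 1 to WT 5. The brain of WT 5 was above both KI brains, and without it the log2 fold change of 0.21 became 0.91 (edgeR adjusted p = 0.0723), which is a call in a fit that called 10.5% of all genes. Cidec and Cfd, not tested for their low counts, had 9 and 17 and 1 and 37 counts in the KI brains against at most 1 and 4 in the WT brains.

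The KI effect in skin was set against that in the other tissues by a test of the difference, which has values to compare only for Fabp4, Pparg, Lpl and Dgat2, since the other genes were at or near 0 counts in liver or brain. Pparg itself had only 4 to 24 counts in the brains. For skin against liver, edgeR called none of these 4, beside 0.0997% of 18062 genes, and none had an unadjusted p under 0.05, against 1001 of all genes. For skin against brain, edgeR called none of the 4 and no other gene of 18062 (0.0%), and 1339 genes had an unadjusted p under 0.05, none of them among the 4. DESeq2 called 119 and 56 genes in these comparisons. For Fabp4, called in the liver alone, the difference of skin minus liver was -1.28 (standard error 0.887, edgeR adjusted p = 1.000), so that the effects in skin and liver were not shown to differ.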

How the data were processed

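RNA of whole skin, liver and brain was sequenced as paired-end TruSeq v2 libraries. Per the paper's methods the skin RNA was less intact than that of the samples called blood and liver there, and no value is named for brain. The authors trimmed the reads, aligned them to mm9 with TopHat2 and deposited raw counts of reads per gene symbol made with HTSeq. The version, annotation and strand setting are not given in the sources used here. The counts carry no normalization. Reads without a gene were 12.4% to 19.5% of those aligned to 1 place and were left out.

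The 10 genes and all lists were chosen with earlier results of these data known. Counts were filtered with filterByExpr and given TMM factors, and edgeR 4.0.16 under R 4.3.3 fitted its quasi-likelihood model on the 7 libraries of a tissue, on the 15 WT libraries for tissues, or on all 21 for differences of effects. Benjamini-Hochberg adjusted p-values under 0.1 over all genes tested were called, and permutation p-values were read at 0.05. DESeq2 1.42.0 was an alternative. Standard errors are the absolute log2 fold change over the square root of F, and 95% intervals use the normal quantile, which is narrow for so few libraries. CPM within a tissue are on that tissue's scale, and CPM per kilobase use the longest coding transcript of GENCODE on NCBIM37. Besides the 10 genes, the text names the 10 genes most alike, and on each fat list the genes called and the 3 with the largest difference in skin. Nothing in the labels says that mice came from separate litters, so p-values measure the spread between these libraries. Intervals cover no other error. Both tools were tested beforehand on counts simulated with known changes in 200 genes. Python 3.11.15 was used for values and figures.

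Alternatives were DESeq2 size factors, no filter beyond 1 count, an adjusted p of 0.05, DESeq2's Wald test, each library left out, a block for the replicate number, a covariate for Y-linked expression over 20 CPM, all 21 libraries in 1 fit, 1 CPM as pseudocount, Plin1 for Adipoq, and union exons. Leaving out WT 3 and WT 4 together was added after seeing the data.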

Additional observations from a re-analysis of the deposited data

Results flagged for a closer look

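Of 31 groups of 5 WT libraries examined for a library far from the others (gap over range above 0.71 for 5 samples), 4 had one, and chance gives about 1 in 20 groups. In the WT skins, Ucp1 was 179 CPM in WT 3, and the next skin had 0.929 CPM. The log2 ratio of Ucp1 to Adipoq in that skin was -2.62, against -9.17 in the next. The sum of the 15 brown fat genes other than Ucp1 was 589 CPM there, against 227 in the next. In the WT brains, Lpl was 58.3 CPM in WT 5, and the next brain had 20.1 CPM. The 3 skin values come from 1 library and are not independent of each other.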

How the results depend on the processing

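The count of called fat genes in skin was 0 under every alternative run. The difference in the log2 ratio of Ucp1 to Adipoq stayed below 0 and ran from -3.69 without WT 4 to -1.74 without WT 3, where fewer than 7 skins allow no p under 0.05. The KI to WT ratio of the summed white fat genes ran from 0.776 without KI 2 to 1.76 without KI 1, and so turned direction. In the liver, 0 genes were called with all 21 libraries in 1 fit, and 1 to 2 with 1 liver left out. In the brain, 1 (Lpl) was called with the replicate block, in a fit that called 13.6% of all genes, and 0 to 1 with 1 brain left out, the 1 coming without WT 5, where 10.5% of all genes were called. KI and WT libraries share only numbers 1 and 2, and deviations of same-numbered libraries correlated at 0.198 and 0.0363 in skin, -0.0269 and -0.0932 in liver, and 0.0217 and -0.0952 in brain, so the numbers were not taken as a pairing. Same-numbered WT libraries of different tissues correlated at 0.00198 to 0.188. With the block, Lpl in brain was called (log2 fold change 1.02, adjusted p = 0.0273), Cebpd in skin lost its call, as did Gpam, Gpihbp1, Dgat1, Kcnk3 and Csf1r in liver, and no other call named changed.

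In skin, none of the reversals concerned a called gene. With the replicate block the log2 fold change was -0.058 for Adipoq, -0.30 for Fabp4, 0.38 for Plin5 and -0.29 for Retn. With the Y-linked covariate it was -0.14 for Adipoq, -0.34 for Fabp4, -0.085 for Plin1, -0.14 for Cidec, -0.057 for Pparg, -0.094 for Dgat2, -0.17 for Lipe and -0.19 for Retn in skin, and -0.0098 for Pparg in brain. Without WT 3 and WT 4 it was 0.25 for Plin5 and 0.068 for Fasn. With 1 skin left out the ranges were -0.52 to 0.83 for Adipoq, -0.66 to 0.53 for Fabp4, -0.56 to 1.02 for Plin1, -0.61 to 0.96 for Cidec, -0.45 to 0.93 for Pparg, -0.15 to 0.70 for Lpl, -0.091 to 1.58 for Cfd, -0.14 to 0.36 for Dgat2, -1.29 to 0.30 for Plin5, -0.26 to 0.98 for Fitm2, -0.19 to 0.90 for Pnpla2, -0.12 to 0.72 for Abhd5, -0.64 to 0.91 for Lipe, -1.88 to 0.018 for Scd1, -1.64 to 0.34 for Fasn, -0.0068 to 1.27 for Slc27a1, -0.48 to 1.19 for Acsl1 and -0.69 to 0.91 for Retn. The lowest values came without KI 2 in all of these but Dgat2, where they came without WT 5. Other ranges that crossed 0 were -0.0072 to 0.090 for Lpl in liver, and -0.24 to 0.53 for Pparg, -0.15 to 0.91 for Lpl and -0.031 to 0.13 for Dgat2 in brain. With 1 KI mouse left, that library is assumed to vary like the WT libraries. The causes were not tested. At 3 to 29 counts, Ucp1 was near the limit of detection in all skins but WT 3 and WT 4.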
